A study of Mus musculus with 18 samples.

Results

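The 9 genes examined encode the TET dioxygenases (*Tet1*, *Tet2* and *Tet3*), the DNA glycosylase *Tdg* and 5 genes of methyl-CpG readers (*Mbd1*, *Mbd2*, *Mbd3*, *Mbd4* and *Zbtb33*). They were taken by gene symbol from a table of 34244 genes in 9 mouse embryos, and all 9 were among the 19397 genes with enough signal to be tested. In embryos labelled Dnmt3b-/-, *Tet2* was 30.9% lower and *Tet3* 24.6% lower than in Dnmt3b+/+ embryos. Only these 2 of the 9 genes were called there, where 25.8% of all tested genes were called and 16.4% were called lower. None of the 9 genes passed the test between Dnmt3bCI/CI and Dnmt3b+/+ embryos, where 0.144% of all tested genes did. *Tdg* was higher in embryos labelled Dnmt3b-/- than in Dnmt3bCI/CI embryos, and so was *Zbtb33*, calls that held in 16 and 11 of 19 alternatives. For *Zbtb33* the embryos labelled Dnmt3b-/- overlapped those of Dnmt3b+/+, and the Dnmt3bCI/CI embryos were the lower ones. After a correction for exon length *Tet2* was still called lower than in Dnmt3b+/+ embryos, with a log2 difference of −0.27 instead of −0.51, and *Tet3* was not. With that correction neither was called against Dnmt3bCI/CI embryos.

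TET enzymes oxidise 5-methylcytosine, and Tdg cuts out the further oxidised bases so that base excision repair can put an unmodified cytosine in their place. Methyl-CpG-binding proteins and the zinc finger protein Kaiso, the product of *Zbtb33*, bind methylated DNA and bring in corepressors such as the NuRD complex. Dnmt3b lays down methylation in the early embryo, on the same cytosines that these enzymes and readers act on.

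RNA-seq was done on whole embryos of the FVB strain at E11.5, with 1 library from each of 3 independent embryos per genotype. Dnmt3b+/+ embryos carried the wild-type gene, Dnmt3bCI/CI embryos carried a knock-in of amino acid substitutions in the catalytic site, made with CRISPR/Cas9, and Dnmt3b-/- embryos carried a conventional knockout allele derived from a loxP-flanked one. Embryos came from matings of heterozygous mice, and those used were alive when collected. Library totals, worked back from the deposited values, were 38451729 to 49808777 reads.

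The targeted gene was checked first. *Dnmt3b*, summed over the whole gene, was 2.25, 1.62 and 2.04 FPKM in Dnmt3b+/+ embryos, 2.45, 3.12 and 3.33 FPKM in embryos labelled Dnmt3b-/-, and 2.06, 1.98 and 2.32 FPKM in Dnmt3bCI/CI embryos. It was not lower in the knockout embryos but higher, by 0.57 ± 0.15 on the log2 scale (SE, adjusted p = 0.0248, limma). A sum over the gene does not show which exons gave the reads, so these embryos are named by their label throughout.

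A whole embryo mixes many cell types, so that fewer cells of a type and less RNA per cell cannot be told apart. Some tissue markers moved with the genotype, and their counts stand against 9.41% of all tested genes called higher and 16.4% called lower in embryos labelled Dnmt3b-/- than in Dnmt3b+/+. All 6 cartilage markers fell in embryos labelled Dnmt3b-/-, with a summed level of 79.5 to 126 FPKM against 140 to 210 in Dnmt3b+/+ and 201 to 213 in Dnmt3bCI/CI embryos, and 3 of 6 muscle markers fell. Of 6 proliferation genes, 5 rose, to a summed 174 to 213 FPKM against 108 to 158 and 121 to 132. None of 8 neuronal markers passed the test, with 1 at an unadjusted p under 0.05 and a median log2 difference of −0.39. Without the first embryo labelled Dnmt3b-/-, 4 of the 8 were called lower, with a median of −0.75. Of 5 tested germ cell and pluripotency genes 1 fell, of 5 macrophage markers 2 fell, of 6 endothelial markers none passed, and of 6 neural progenitor markers 1 rose. Over the alternatives 4 to 6 cartilage, 0 to 3 muscle and 1 to 4 macrophage markers were called lower, and 3 to 5 proliferation genes, 0 to 2 erythroid and 0 to 1 neural progenitor markers higher. The muscle count was 0 without the second embryo labelled Dnmt3b-/- and 1 without the third or without the second or the third Dnmt3b+/+ embryo, the proliferation count was 3 without the second embryo labelled Dnmt3b-/-, and the macrophage count was 4 without the first. The erythroid sum reached 6446 FPKM in the second embryo labelled Dnmt3b-/- against 2064 to 3670 in the other 8 embryos, and the hepatocyte sum was 35.9 FPKM in the second Dnmt3b+/+ embryo against 144 and 259 in the other Dnmt3b+/+ embryos, 52.9 to 108 in embryos labelled Dnmt3b-/- and 162 to 191 in Dnmt3bCI/CI embryos. Of 6 hepatocyte markers 1 fell, *Ttr*, and of 6 erythroid markers 1 rose, *Hba-x*, both named after their values were seen. *Ttr* alone gave 35.5 of the 35.9 FPKM in the second Dnmt3b+/+ embryo, its highest value of the 9 embryos. The other hepatocyte markers were nearly absent from that embryo. Without the second Dnmt3b+/+ embryo 5 of the 6 hepatocyte markers were called lower, and their median log2 difference went from 0.57 to −1.43. Between embryos labelled Dnmt3b-/- and Dnmt3bCI/CI embryos, 18.2% of all tested genes were called lower and 9.7% higher. Against Dnmt3bCI/CI embryos, the counts for embryos labelled Dnmt3b-/- were 5 of 6 cartilage, 3 of 6 muscle, 4 of 5 macrophage, 2 of 6 endothelial and 1 of 6 hepatocyte markers lower, 3 of 6 neural progenitor (median log2 difference 0.73), 5 of 6 proliferation and 1 of 6 erythroid genes higher, 1 of 5 germ cell and pluripotency genes in each direction, and none of 8 neuronal markers, with 3 of these at an unadjusted p under 0.05. Without the first embryo labelled Dnmt3b-/-, 6 of the 8 neuronal markers were called lower than in Dnmt3bCI/CI embryos (median −1.04), and without the second Dnmt3b+/+ embryo 5 of the 6 hepatocyte markers were. The part of these tissues in the results on the 9 genes was not tested.

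Promoter windows of RefSeq on the build GRCm38.p6, running from 250 bases before to 50 bases after the start, were matched for 7 of the 9 genes. Each window surrounds the 1 start that this table gives for the gene, which for *Tet3* lies 17406 bases, for *Tet1* 21672 bases and for *Tet2* 749 bases downstream of the outermost start annotated by GENCODE, and for the other 4 genes within 30 bases of it. Other starts of these genes were not examined. To show how many CG dinucleotides each holds, the windows of the 4 genes called in at least 1 comparison are printed 5′ to 3′ on the strand of the gene, with CG dinucleotides in capitals. *Tet2* lies at chr3:133544341-133544640 on the minus strand, *Tet3* at chr6:83441629-83441928 on the minus strand, *Tdg* at chr10:82629588-82629887 on the plus strand and *Zbtb33* at chrX:38189543-38189842 on the plus strand.
Tet2: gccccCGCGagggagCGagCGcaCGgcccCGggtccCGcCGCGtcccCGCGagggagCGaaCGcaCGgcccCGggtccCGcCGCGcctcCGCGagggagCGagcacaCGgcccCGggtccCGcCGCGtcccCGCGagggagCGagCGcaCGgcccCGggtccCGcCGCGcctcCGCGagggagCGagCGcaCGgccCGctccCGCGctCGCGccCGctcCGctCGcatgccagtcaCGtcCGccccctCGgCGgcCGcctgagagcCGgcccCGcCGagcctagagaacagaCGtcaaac
Tet3: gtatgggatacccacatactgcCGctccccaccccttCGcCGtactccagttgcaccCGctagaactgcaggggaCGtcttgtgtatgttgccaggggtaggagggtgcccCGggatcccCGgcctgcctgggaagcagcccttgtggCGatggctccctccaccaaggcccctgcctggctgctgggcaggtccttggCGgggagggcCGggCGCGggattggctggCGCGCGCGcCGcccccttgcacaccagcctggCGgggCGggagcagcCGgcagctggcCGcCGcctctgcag
Tdg: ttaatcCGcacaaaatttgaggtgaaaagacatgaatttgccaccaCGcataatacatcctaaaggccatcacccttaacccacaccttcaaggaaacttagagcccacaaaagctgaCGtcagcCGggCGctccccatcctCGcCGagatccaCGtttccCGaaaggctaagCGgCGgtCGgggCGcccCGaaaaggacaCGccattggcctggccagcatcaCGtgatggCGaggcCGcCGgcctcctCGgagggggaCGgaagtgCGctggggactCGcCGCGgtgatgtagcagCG
Zbtb33: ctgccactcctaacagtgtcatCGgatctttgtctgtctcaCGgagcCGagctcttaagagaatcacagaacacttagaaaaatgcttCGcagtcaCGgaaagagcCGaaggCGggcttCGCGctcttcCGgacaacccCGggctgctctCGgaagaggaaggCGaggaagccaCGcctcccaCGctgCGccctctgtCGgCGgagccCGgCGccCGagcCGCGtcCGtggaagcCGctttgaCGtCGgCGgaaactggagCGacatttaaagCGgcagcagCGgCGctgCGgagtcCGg

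The *Tet2* window held 57 CG dinucleotides, against 22 for *Tet3*, 26 for *Tdg* and 34 for *Zbtb33*, and stood at percentile 99.9 of 32851 windows, whose median was 7 and upper quartile 20. A stretch of about the same letters recurs several times along the *Tet2* window. *Tet1* held 17, *Mbd3* 22 and *Mbd4* 25, so that 6 of the 7 windows were above the upper quartile of all windows. The letters CGCG, which read the same on both strands and form the core of motifs bound by Kaiso, were in all 7 windows and in 38.0% of all windows. These are matches of letters and not sites of binding, and the methylation of the windows was not analysed here.

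The 9 genes spanned a wide range of levels. FPKM, the number of reads scaled to exon length and library size, allows levels to be compared between genes. In Dnmt3b+/+ embryos *Mbd3* stood first with 67.4 FPKM, 6.48 times the next gene, *Tet3* (10.4). The order then ran *Mbd2* (8.66), *Mbd1* (6.29), *Tdg* (4.78), *Zbtb33* (4.54), *Mbd4* (2.42), *Tet2* (2.10) and *Tet1* (1.49). *Tdg* and *Zbtb33* overlapped in their embryos, as did *Mbd4* and *Tet2*, so that neither pair has an order. In embryos labelled Dnmt3b-/- *Tet3* (7.37 to 8.45 FPKM) lay wholly below *Mbd2* (9.19 to 10.4 FPKM), the reverse of their order in Dnmt3b+/+ embryos, and *Tdg* overlapped *Mbd1*. In Dnmt3bCI/CI embryos *Tet3* and *Mbd2* overlapped. The annotated exon lengths gave whole reads, to within 0.01 of a read, for 7 of the genes, from 443 to 9038 reads per embryo, but not for *Tet1* and *Mbd1*, whose place in the order therefore rests on a length that could not be traced.

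**Figure D1:**
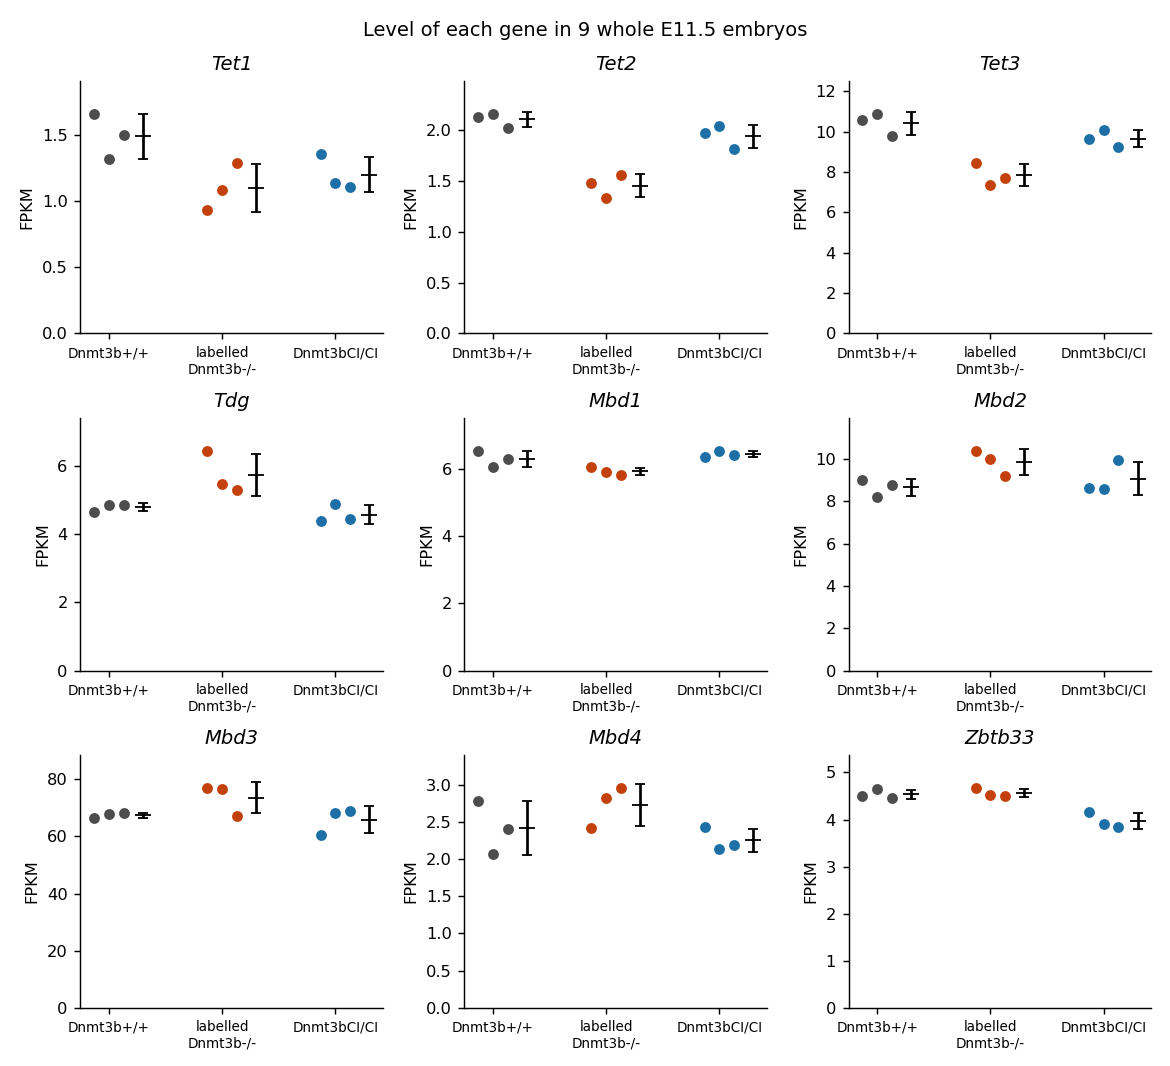
FPKM of each of the 9 genes (y axis from 0, own scale per gene) in 3 embryos per genotype (points), with the mean and SD at the right of each group (n = 3). The 3 embryos labelled Dnmt3b-/- lie below all Dnmt3b+/+ embryos for *Tet1*, *Tet2* and *Tet3* and above them for *Tdg* and *Mbd2*, and the Dnmt3bCI/CI embryos lie below the others for *Zbtb33*.

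The first comparison sets the embryos labelled Dnmt3b-/- against Dnmt3b+/+ embryos. *Tet2* and *Tet3* fell in embryos labelled Dnmt3b-/-, and the other 7 genes did not pass an adjusted p of 0.05. That is 2 of 9, against 25.8% of all tested genes that passed, with none higher and both lower, where 9.41% of all tested genes were called higher and 16.4% lower. A share of this size is close to the background and is not a result about the 9 genes as a group. None of the 9 reached a fold of 2, as 4.45% of all tested genes did.

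*Tet2*, the TET enzyme without a CXXC domain of its own, was 2.13, 2.16 and 2.02 FPKM in Dnmt3b+/+ embryos, 1.47, 1.33 and 1.56 in embryos labelled Dnmt3b-/-, and 1.97, 2.03 and 1.81 in Dnmt3bCI/CI embryos. All 3 embryos labelled Dnmt3b-/- were below the other 6. The reads behind these values were 1604, 1812 and 1337, then 992, 952 and 1066, then 1490, 1486 and 1175. On log2(FPKM + 0.1) the difference from Dnmt3b+/+ was −0.51 ± 0.09 (SE, n = 3 per genotype, adjusted p = 0.0056, limma).

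*Tet3*, which oxidises the paternal genome in the zygote and here made up most of the TET transcripts, was 10.6, 10.9 and 9.79 FPKM in Dnmt3b+/+ embryos, 8.45, 7.37 and 7.72 in embryos labelled Dnmt3b-/-, and 9.65, 10.1 and 9.24 in Dnmt3bCI/CI embryos. Again the embryos labelled Dnmt3b-/- were the lowest 3 of the 9. The difference from Dnmt3b+/+ was −0.40 ± 0.07 on the log2 scale (SE, adjusted p = 0.00541, limma).

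*Tet1*, the TET enzyme of embryonic stem cells and germ cells, was 1.66, 1.32 and 1.498 FPKM in Dnmt3b+/+ embryos, 0.930, 1.08 and 1.29 in embryos labelled Dnmt3b-/-, and 1.36, 1.14 and 1.11 in Dnmt3bCI/CI embryos. The embryos labelled Dnmt3b-/- were all below those of Dnmt3b+/+ but reached into the range of Dnmt3bCI/CI. At −0.41 ± 0.14 the log2 difference from Dnmt3b+/+ was as large as that of *Tet3* but more variable, and it did not pass the test (95% interval −0.73 to −0.09, adjusted p = 0.0604, limma). Of 19 alternatives it passed in 1, without the third embryo labelled Dnmt3b-/- (−0.52, adjusted p = 0.0469). Without the first it was −0.31 (adjusted p = 0.117), and under quantile normalization −0.22 (adjusted p = 0.339).

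The *Tet* genes have long exons in common, 15457 bases for *Tet1*, 16870 for *Tet2* and 16695 for *Tet3*, and exon length moved with the genotype difference over all genes. Among the 1431 tested genes with 10000 or more exon bases, the median log2 difference between embryos labelled Dnmt3b-/- and Dnmt3b+/+ was −0.19, with 30.8% called lower and 3.42% called higher. Among the 5025 genes under 2000 bases the median was −0.01, with 9.59% called lower and 8.94% higher. Once the trend with exon length was subtracted in each embryo, an alternative added after the values were seen, *Tet2* was still lower at −0.27 (adjusted p = 0.0294), *Tet3* was at −0.17 and no longer passed (adjusted p = 0.0509), and *Tet1* was at −0.19 (adjusted p = 0.340).

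**Figure D2:**
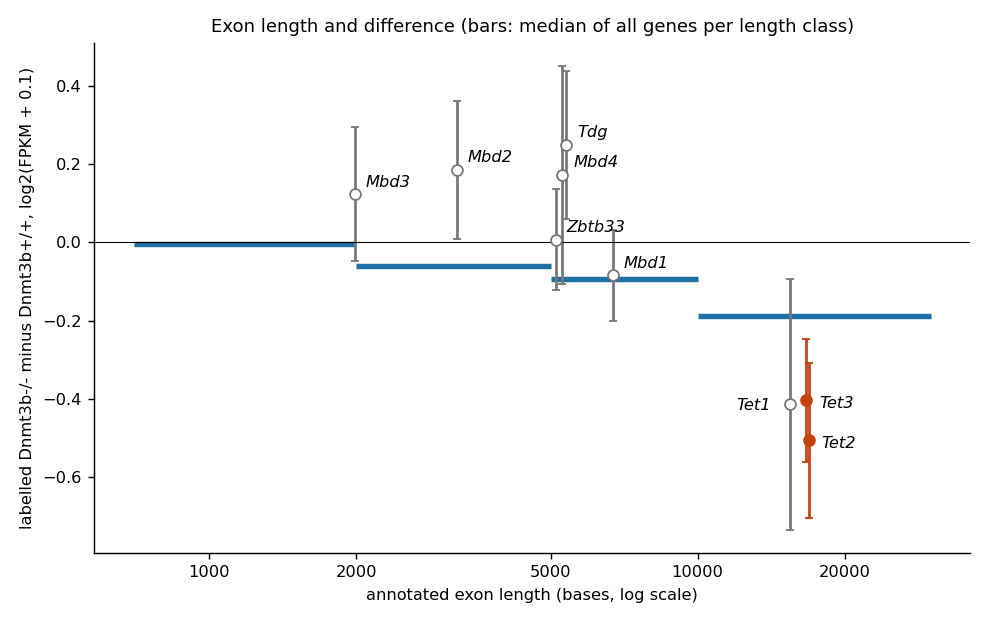
Log2 difference between embryos labelled Dnmt3b-/- and Dnmt3b+/+ (y axis) against annotated exon length in bases (log x axis) for the 9 genes, with 95% intervals, filled where the adjusted p was under 0.05, and horizontal bars for the median of all tested genes in 4 length classes, the outer ones open-ended. The median falls from −0.01 under 2000 bases to −0.19 from 10000 bases on, and the *Tet* genes, all in the longest class, lie below that bar.

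*Tdg*, the glycosylase that removes formylcytosine and carboxylcytosine, went the other way. It was 4.64, 4.86 and 4.85 FPKM in Dnmt3b+/+ embryos, 6.42, 5.45 and 5.30 in embryos labelled Dnmt3b-/-, and 4.36, 4.88 and 4.44 in Dnmt3bCI/CI embryos. The embryos labelled Dnmt3b-/- were the highest 3 of the 9, with the first of them well above the other two. The log2 difference from Dnmt3b+/+, 0.25 ± 0.08 (SE), did not pass the test (95% interval 0.06 to 0.44, adjusted p = 0.0574, limma). Of 19 alternatives it passed in 3, median-of-ratios scaling (0.31, adjusted p = 0.0167), quantile normalization (0.31, adjusted p = 0.0201) and the exon length correction (0.34, adjusted p = 0.0125). Without the first embryo labelled Dnmt3b-/- it was 0.16 (adjusted p = 0.0942). Of the 5374 exon bases of *Tdg*, 6.83% lie opposite exons of *Glt8d2*, whose mean level was 0.396 FPKM, and the annotated pseudogene *Tdg-ps* has no row of its own in the table.

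**Figure D3:**
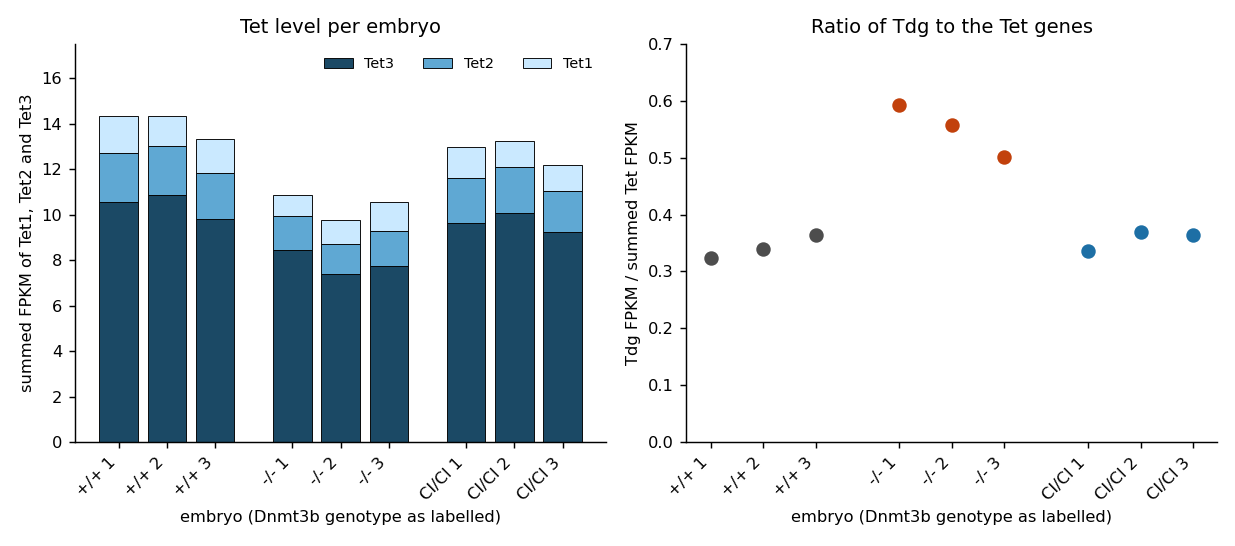
Left, FPKM of *Tet3*, *Tet2* and *Tet1* stacked for each of the 9 embryos (y axis from 0); right, FPKM of *Tdg* divided by that sum in the same embryos. The sum is 9.78 to 10.9 FPKM in the embryos labelled Dnmt3b-/- against 12.2 to 14.3 in the other 6, and the ratio is 0.501 to 0.592 against 0.324 to 0.369.

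The summed *Tet* level shows both movements together. It was 14.0 ± 0.600 FPKM in Dnmt3b+/+, 10.4 ± 0.556 in embryos labelled Dnmt3b-/- and 12.8 ± 0.559 in Dnmt3bCI/CI embryos (SD, n = 3 each). Its makeup differed little, with *Tet3* at 74.3%, 75.4% and 75.5% of the sum, *Tet2* at 15.0%, 14.0% and 15.1%, and *Tet1* at 10.7%, 10.6% and 9.40%. *Tdg* stood at 0.342 ± 0.0206 of the summed *Tet* level in Dnmt3b+/+, at 0.550 ± 0.0459 in embryos labelled Dnmt3b-/- and at 0.357 ± 0.0177 in Dnmt3bCI/CI embryos, and the embryos labelled Dnmt3b-/- did not overlap the rest. These sums and ratios were formed from genes whose differences were already known, so they are given without a test.

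Among the readers no gene passed the test between embryos labelled Dnmt3b-/- and Dnmt3b+/+. *Mbd2*, which binds methylated CpG and joins NuRD, came nearest. It was 8.997, 8.18 and 8.79 FPKM in Dnmt3b+/+ embryos, 10.4, 10.02 and 9.19 in embryos labelled Dnmt3b-/-, and 8.64, 8.59 and 9.97 in Dnmt3bCI/CI embryos. The embryos labelled Dnmt3b-/- were above all Dnmt3b+/+ embryos, but 1 Dnmt3bCI/CI embryo lay among them. The log2 difference of 0.19 ± 0.08 (SE) had an adjusted p of 0.109 (limma), and it passed under median-of-ratios scaling (0.25, adjusted p = 0.0271) and the exon length correction (0.24, adjusted p = 0.0300).

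*Mbd3*, the NuRD subunit with little affinity for methylated CpG in mammals, was 66.5, 67.8 and 68.0 FPKM in Dnmt3b+/+ embryos, 76.9, 76.6 and 67.2 in embryos labelled Dnmt3b-/-, and 60.4, 68.2 and 69.0 in Dnmt3bCI/CI embryos. The first and second embryos labelled Dnmt3b-/- were the highest of the 9, and the third was within the range of Dnmt3b+/+ and Dnmt3bCI/CI. The log2 difference was 0.12 (95% interval −0.05 to 0.29, adjusted p = 0.258, limma), turning to −0.02 under quantile normalization. It was 0.19 under median-of-ratios scaling (adjusted p = 0.0591) and 0.17 with the exon length correction (adjusted p = 0.0497). *Mbd3* and *Mbd2*, which form NuRD complexes that exclude one another, kept a ratio of 7.81 ± 0.455 in Dnmt3b+/+, 7.45 ± 0.170 in embryos labelled Dnmt3b-/- and 7.29 ± 0.565 in Dnmt3bCI/CI embryos (SD, n = 3 each).

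*Mbd1*, a reader that also has CXXC zinc fingers, had the narrowest spread of the methyl-CpG-binding genes. It was 6.53, 6.04 and 6.29 FPKM in Dnmt3b+/+ embryos, 6.05, 5.90 and 5.83 in embryos labelled Dnmt3b-/-, and 6.37, 6.53 and 6.41 in Dnmt3bCI/CI embryos. The log2 difference between embryos labelled Dnmt3b-/- and Dnmt3b+/+ was −0.08 (95% interval −0.20 to 0.03, adjusted p = 0.256, limma).

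*Mbd4*, a glycosylase that removes thymine from T:G mismatches left by deaminated 5-methylcytosine, was 2.78, 2.06 and 2.41 FPKM in Dnmt3b+/+ embryos, 2.41, 2.82 and 2.95 in embryos labelled Dnmt3b-/-, and 2.43, 2.14 and 2.18 in Dnmt3bCI/CI embryos. The genotypes overlapped, and the log2 difference of 0.17 (95% interval −0.10 to 0.45, adjusted p = 0.325, limma) did not pass the test. It was 0.07 without the second Dnmt3b+/+ embryo and 0.27 without the first. An antisense transcript, *Gm44206*, lies opposite 264 of its 5280 exon bases and had a mean level of 1.16 FPKM. *Tdg* and *Mbd4*, both of which act on T:G mismatches, had a ratio of 2.01 ± 0.343, 2.13 ± 0.467 and 2.04 ± 0.245 in the 3 genotypes in the same order.

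*Zbtb33*, the gene of Kaiso, was 4.51, 4.65 and 4.47 FPKM in Dnmt3b+/+ embryos and 4.67, 4.53 and 4.50 in embryos labelled Dnmt3b-/-, which overlap. The log2 difference was 0.01 (95% interval −0.12 to 0.14, adjusted p = 0.936, limma). The Dnmt3bCI/CI embryos were apart from both, with 4.17, 3.91 and 3.83 FPKM. Of the 5122 exon bases of *Zbtb33*, 9.25% lie opposite exons of *Tmem255a*, which had a mean level of 2.68 FPKM, and whether the counting used strand is not stated.

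Counted by whether the embryos overlap, 3 of the 9 genes lay wholly lower in embryos labelled Dnmt3b-/- than in Dnmt3b+/+ (*Tet1*, *Tet2* and *Tet3*), against 23.8% of all tested genes, and 2 lay wholly higher (*Tdg* and *Mbd2*), against 15.1%. An exact permutation test of 3 embryos against 3 cannot go below p = 0.1 and was not used. The median log2 difference of all tested genes was −0.07, and it was −0.01 under median-of-ratios scaling and 0.03 under quantile normalization. The share of higher genes among those called rose from 36.5% to 50.2% and 52.2% under these scalings, and *Tet2* and *Tet3* were called lower under both.

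**Figure D4:**
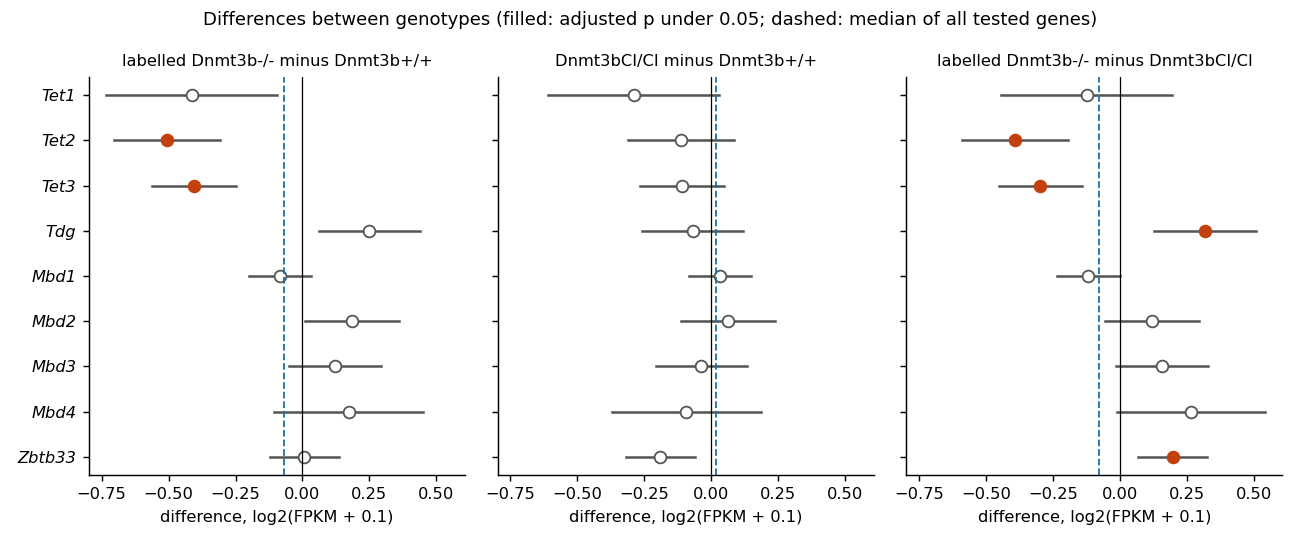
Log2 difference of each gene with its 95% interval in 3 comparisons (x axis, log2(FPKM + 0.1)), filled where the adjusted p was under 0.05, with the median of all tested genes dashed. *Tet2* and *Tet3* are called in the left and right panels, *Tdg* and *Zbtb33* in the right panel alone, and no gene in the middle panel.

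The second comparison asks whether a Dnmt3b protein without catalytic activity leaves these genes at their usual level. None of the 9 genes passed the test between Dnmt3bCI/CI and Dnmt3b+/+ embryos, where 0.144% of all tested genes did (limma). At an unadjusted p under 0.05 there was 1 of 9, *Zbtb33*, against 5.25% of all tested genes. A count of 0 against so low a background says little about the 9 genes.

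For *Zbtb33* the 3 Dnmt3bCI/CI embryos were all below the 3 Dnmt3b+/+ embryos, which 5.65% of all tested genes also did. The log2 difference was −0.19 ± 0.06 (SE), with an unadjusted p of 0.00888 and an adjusted p of 0.730 (limma). The intervals of the *Tet* genes bound what may have gone unseen. The difference of *Tet2* was −0.11 (95% interval −0.31 to 0.08), that of *Tet3* −0.11 (−0.26 to 0.05) and that of *Tet1* −0.29 (−0.61 to 0.03). The adjusted p was 0.949 for each of them. *Tdg* differed by −0.07 (95% interval −0.26 to 0.12).

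The third comparison sets the embryos labelled Dnmt3b-/- against the Dnmt3bCI/CI embryos, and thereby tests whether the effects of the alleles differ. It shares its embryos with the comparisons above and is not independent of them. Here 4 of the 9 genes passed, against 27.9% of all tested genes, with *Tet2* and *Tet3* lower and *Tdg* and *Zbtb33* higher in embryos labelled Dnmt3b-/-. Of all tested genes 18.2% were called lower and 9.7% higher. *Tet2* differed by −0.39 ± 0.09 (adjusted p = 0.0125, limma) and *Tet3* by −0.30 ± 0.07 (adjusted p = 0.0151). *Tdg* differed by 0.32 ± 0.08 (adjusted p = 0.0234) and *Zbtb33* by 0.20 ± 0.06 (adjusted p = 0.0327).

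These calls were near the threshold. With the exon length correction *Tet2* was at −0.21 (adjusted p = 0.0623) and *Tet3* at −0.11 (adjusted p = 0.146), while *Tdg* was at 0.42 (adjusted p = 0.00473) and *Zbtb33* at 0.30 (adjusted p = 0.00574). Leaving out 1 embryo, namely the second or the third labelled Dnmt3b-/- or any of the 3 Dnmt3bCI/CI embryos, lowered the count from 4 to 2. *Tet1* differed by −0.12 (adjusted p = 0.537), turning to 0.09 under quantile normalization and to 0.05 with the exon length correction. *Mbd1*, *Mbd2*, *Mbd3* and *Mbd4* did not pass, with adjusted p from 0.117 to 0.265. The embryos of 3 genes lay wholly lower, *Mbd1* among them, against 29.5% of all tested genes, and those of 2 wholly higher, against 16.7%.

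The 3 genes with the largest range over the 9 embryos were *Tet1*, *Tet2* and *Tet3*. For each, the tested genes with the most similar profile were found by the root mean square difference of the centred log2 values over the 9 embryos. *Tet1* lay closest to *Usf3* (0.0486), then *A930004J17Rik* (0.0685) and *Smg1* (0.0711). *Tet2* lay closest to *Vps13d* (0.0550), *Phc3* (0.0559) and *Slc36a4* (0.0566), and among the genes closest to *Tet3* were *Gpr161* (0.0349) and *Zyg11b* (0.0424). The 8 genes named here had mixed exon lengths, with 13050 bases in *Usf3*, 23984 in *Smg1*, 24771 in *Vps13d* and 17485 in *Phc3*, and 4610 in *A930004J17Rik*, 6540 in *Slc36a4*, 6962 in *Gpr161* and 9046 in *Zyg11b*.

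The enzymes that work with these 9 genes were followed through 6 lists of partners with 69 tested genes. Between embryos labelled Dnmt3b-/- and Dnmt3b+/+, 18 rose and 9 fell, together 39.1%, with 25.8% of all tested genes called. The median log2 difference of the partners was 0.08 and that of all tested genes −0.07. None of the 69 passed in Dnmt3bCI/CI against Dnmt3b+/+ embryos, with 1 at an unadjusted p under 0.05 (limma).

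Base excision repair completes the removal of modified cytosines after the glycosylase. Of 18 tested genes of this list 9 rose and none fell, with a median of 0.30, where 9.41% of all tested genes rose. *Parp1*, which senses strand breaks, was 30.0, 26.9 and 27.7 FPKM in Dnmt3b+/+ embryos, 39.2, 40.8 and 40.7 in embryos labelled Dnmt3b-/-, and 27.5, 27.9 and 27.6 in Dnmt3bCI/CI embryos, so that the embryos labelled Dnmt3b-/- stood well above the other 6. The log2 difference was 0.51 ± 0.05 (SE, adjusted p = 0.00073, limma). *Apex1*, the endonuclease that cuts at abasic sites, was 0.50 higher (adjusted p = 0.00357), and *Xrcc1*, the scaffold of the ligation step, 0.37 higher (adjusted p = 0.00612). *Pcna*, the sliding clamp of replication, was 0.58 higher (adjusted p = 0.0106) and is also 1 of the 5 proliferation genes that rose. The number of genes that rose lay between 5 and 12 over the alternatives and was 5 without the second embryo labelled Dnmt3b-/-. The part of replicating cells in these differences was not tested.

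Of 10 tested TET cofactors 1 rose and 2 fell, near the shares of all tested genes that rose (9.41%) and fell (16.4%). *Sall4*, a zinc finger protein that binds oxidised methylcytosine and marks pluripotent and other immature cells, was 0.769, 0.279 and 0.548 FPKM in Dnmt3b+/+ embryos, 1.14, 1.69 and 1.43 in embryos labelled Dnmt3b-/-, and 0.483, 0.522 and 0.474 in Dnmt3bCI/CI embryos. It rose by 1.33 ± 0.28 on the log2 scale (SE, adjusted p = 0.0111, limma), the only gene of the 6 lists that rose more than 2-fold. *Ogt*, the glycosyltransferase that binds TET proteins, fell by 0.34 (adjusted p = 0.00721), and *Slc23a2*, a transporter of the TET cofactor vitamin C, fell by 0.31 (adjusted p = 0.0226) but had an adjusted p of 0.115 under quantile normalization. Of 6 tested Gadd45 and deaminase genes none passed, with 1 at an unadjusted p under 0.05. *Gadd45a*, a stress-induced gene linked to active demethylation, had the smallest adjusted p (log2 difference 0.41, adjusted p = 0.122).

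The NuRD complex, which *Mbd2* and *Mbd3* join, removes acetyl groups from histones and remodels nucleosomes. Of 13 tested genes 7 rose and 2 fell, where 9.41% of all tested genes rose and 16.4% fell. Both that fell encode remodelling ATPases. *Chd5*, an ATPase of neurons, was 1.55, 2.93 and 1.65 FPKM in Dnmt3b+/+ embryos, 0.576, 0.218 and 0.232 in embryos labelled Dnmt3b-/-, and 1.97, 1.99 and 2.09 in Dnmt3bCI/CI embryos. It fell by 2.32 ± 0.32 on the log2 scale (SE, adjusted p = 0.00238, limma). The neuronal markers, given above, had a median log2 difference of −0.39 with none called, and of −0.75 with 4 of 8 called lower without the first embryo labelled Dnmt3b-/-, and their part in this difference was not tested. *Chd3*, named after its value was seen, fell by 0.52 (adjusted p = 0.0268), whereas *Chd4*, the most widely used of these ATPases, rose by 0.25 (adjusted p = 0.00926) and had 0.12 under quantile normalization (adjusted p = 0.150). *Hdac1*, a deacetylase of the complex, rose by 0.42 (adjusted p = 0.0171) and *Mta2* by 0.27 (adjusted p = 0.0108). The number that rose was between 2 and 8 over the alternatives, with 2 without the second embryo labelled Dnmt3b-/-, and 3 without the third or without the second Dnmt3b+/+ embryo.

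Of 12 other tested readers 1 rose and 3 fell, where 9.41% of all tested genes rose and 16.4% fell. Over the alternatives 1 to 2 rose and 1 to 4 fell. *Zbtb4*, a zinc finger reader related to Kaiso, was 2.22, 2.61 and 2.21 FPKM in Dnmt3b+/+ embryos, 1.29, 0.826 and 0.641 in embryos labelled Dnmt3b-/-, and 2.16, 2.21 and 2.21 in Dnmt3bCI/CI embryos, and it fell by 1.31 ± 0.20 on the log2 scale (SE, adjusted p = 0.00353, limma). *Uhrf1*, which brings Dnmt1 to hemimethylated DNA in dividing cells, was 33.2, 24.5 and 29.4 FPKM, then 42.5, 52.7 and 51.7, then 27.3, 26.2 and 27.6 in the same order of genotypes, a rise of 0.76 ± 0.12 (adjusted p = 0.00376). *Zfp57*, which keeps methylation at imprinted regions, fell by 0.31 (adjusted p = 0.0463), and had an adjusted p of 0.0801 under median-of-ratios scaling. Of 10 tested corepressors 2 fell, near the share of all tested genes, and 0 to 3 fell over the alternatives. Among the 2 was *Tbl1xr1*, which fell by 0.30 (adjusted p = 0.0313) and passed under neither other scaling.

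**Figure D5:**
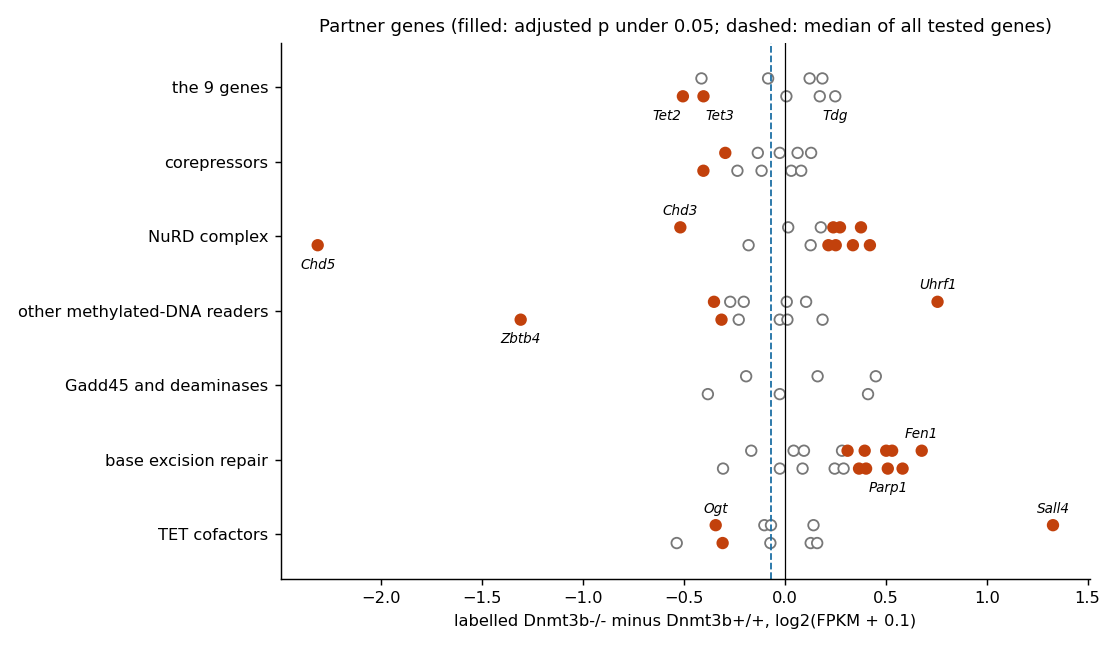
Log2 difference between embryos labelled Dnmt3b-/- and Dnmt3b+/+ (x axis) for each tested gene of 6 partner lists and the 9 genes (rows, points staggered for legibility), filled where the adjusted p was under 0.05, with the median of all tested genes dashed. *Chd5* at −2.32 and *Zbtb4* at −1.31 lie farthest to the left and *Sall4* at 1.33 farthest to the right, while 9 of 18 base excision repair genes are called on the right.

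The DNA methyltransferases set the marks that TET proteins remove. *Dnmt1*, which copies methylation at replication, rose by 0.37 (adjusted p = 0.00741, limma) and *Dnmt3a* fell by 0.27 (adjusted p = 0.0320) in embryos labelled Dnmt3b-/- against Dnmt3b+/+, with −0.20 and an adjusted p of 0.0599 for *Dnmt3a* under median-of-ratios scaling.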

How the data were processed

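Total RNA of 9 whole embryos was sequenced as paired-end reads. The authors trimmed the reads with Trimmomatic, aligned them with STAR to mm10, kept alignments with a mapping quality of at least 50 and deposited FPKM values from SeqMonk on the linear scale, 1 column per embryo, where genes without reads carry a small floor. The annotation release, strand setting and tool versions are not given in the sources used here.

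From these deposited values log2(FPKM + 0.1) was computed for 19397 genes that reached 0.1 FPKM in 3 or more embryos. All 9 embryos were fitted in 1 model with limma 3.58.1 in R 4.3.3, with a trend on the mean level and Benjamini-Hochberg adjustment over all tested genes, and the fit was tested on simulated data. Genes were called at an adjusted p under 0.05. One row without an identifier was left out. Depth was worked back from 8460 genes that sat at the floor, worth 0.9 reads, in all 9 embryos. Exon lengths came from GENCODE M21 and promoters from RefSeq. Overlap of genes was judged by exons on GRCm38. For the exon length correction, a lowess curve on log2 exon length was subtracted in each embryo, with a length for 99.7% of tested genes.

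The 9 genes and all lists were chosen with earlier results of these data known. All 9 genes are named. Of each partner list, genes past a fold of 2 are named, and up to 4 others by the smallest adjusted p. Some genes are counted, but their values are not reported here. Bisulfite sequencing was not analysed here.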

Additional observations from a re-analysis of the deposited data

Results flagged for a closer look

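The effects of the alleles, each against Dnmt3b+/+, differed for 4 of the 9 genes by the test of the difference itself (limma, adjusted over all tested genes), as they did for 27.9% of all tested genes. The count was 2 without any 1 of 5 embryos, the second or the third labelled Dnmt3b-/- or a Dnmt3bCI/CI embryo, and 2 with a replicate block. The difference of the effect in embryos labelled Dnmt3b-/- from that in Dnmt3bCI/CI embryos was −0.39 for *Tet2* (adjusted p = 0.0125), −0.30 for *Tet3* (adjusted p = 0.0151), 0.32 for *Tdg* (adjusted p = 0.0234) and 0.20 for *Zbtb33* (adjusted p = 0.0327) on the log2 scale. For *Tet2*, *Tet3* and *Tdg* the embryos labelled Dnmt3b-/- stood apart from both other genotypes, whereas for *Zbtb33* the Dnmt3bCI/CI embryos did. Every difference had 3 of 3 embryos on its side of the other genotype.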

How the results depend on the processing

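Over 19 alternatives *Tet2* was called lower in embryos labelled Dnmt3b-/- than in Dnmt3b+/+ in all 19 (log2 −0.55 to −0.27) and *Tet3* in 18 (−0.46 to −0.17), the exception being the exon length correction. The count of called genes of the 9 in that comparison was 4 instead of 2 under median-of-ratios scaling, which added *Tdg* and *Mbd2*, and 4 with the exon length correction, which added *Tdg*, *Mbd2* and *Mbd3* and lost *Tet3*. Leaving out 1 embryo at a time gave 2 to 3. In Dnmt3bCI/CI against Dnmt3b+/+ the count was 0 under all alternatives. Between embryos labelled Dnmt3b-/- and Dnmt3bCI/CI it was 4, with 2 to 4 leaving out 1 embryo at a time and 2 to 5 otherwise. There *Tet2* lost its call under quantile normalization (−0.20, adjusted p = 0.147) and *Tet3* under median-of-ratios scaling (−0.21, adjusted p = 0.0514), and *Zbtb33* when only the 2 genotypes compared were fitted (adjusted p = 0.0587). The causes were not tested.

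Embryos with the same number did not resemble one another (mean correlation −0.0865 over 9 pairs, against 0.0478 over 18 pairs of different number), so the numbers do not pair the samples. With the number as a replicate block the count was 2 in the first comparison, 0 in the second and 2 in the third, where *Tdg* (adjusted p = 0.0601) and *Zbtb33* (adjusted p = 0.0759) were no longer called. No value of the 9 genes that was called reversed. Of all tested genes, 5001 were called in the first comparison and 3029 with the block, 2740 with only the 2 genotypes, and 2438 to 6903 leaving out 1 embryo. The count was 2438, 2816 and 2882 without the second and the third embryo labelled Dnmt3b-/- and the third Dnmt3b+/+ embryo, and 6903 without the first labelled Dnmt3b-/-. At a fold of 2 there were 863, with 614 to 1427 leaving out 1 embryo (1427 without the first labelled Dnmt3b-/-), 193 at a pseudocount of 1 FPKM and 484 at a filter of 1 FPKM. With 28 genes called, the second comparison had 18 with the block, and 25 at a fold of 2 became 8 at a pseudocount of 1 FPKM. The third had 5407, 3595 with the block and 3074 to 7243 leaving out 1 embryo, with 3358 or fewer without the second or the third labelled Dnmt3b-/- or without any Dnmt3bCI/CI embryo. At a fold of 2 it had 1051, 751 to 1604 leaving out 1 embryo (1604 without the first labelled Dnmt3b-/-), 242 at a pseudocount of 1 FPKM and 597 at a filter of 1 FPKM. The 7 genes whose reads could be traced had at least 443 reads in each embryo.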
